A study of Taeniopygia guttata with 39 samples.

Results

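The comparison is of HVC, a song control nucleus of the forebrain, in 6 adult female canaries that had carried testosterone for 14 d and 6 that had carried it for 7 d, out of 39 birds of the series. Its members are all birds whose treatment label gives either duration. Both groups were described as non-breeding, lived in aviaries with 9 h of light and 15 h of darkness a day, and carried a 7-mm Silastic tube filled with testosterone under the skin of the breast. The labels call both groups singing, so the comparison runs between an earlier and a later stage of testosterone treatment within singing birds. The other birds of the series were 5 controls with an empty tube and birds treated for 1 h, 3 h, 8 h or 3 d, all labelled as not singing. Each bird is labelled a biological replicate, and HVC was picked from brain sections with forceps, so that the samples are bulk tissue. The organism field names the zebra finch, while the design text names canaries.

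HVC sends motor commands for song to the nucleus RA and feeds a basal ganglia loop through Area X, and its neurons respond to sex steroids. Female canaries sing little, but testosterone implants make them grow HVC and develop male-like song over weeks. In this tissue testosterone is known to act both directly and after conversion to oestradiol by aromatase, and its actions include neuron survival, vessel growth and changes in the electrical properties of the projection neurons.

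Each array gave a log2 value for 26061 transcripts, as deposited, and 2226 of the genes behind them could be named. The number of arrays, not a read depth, limits the precision. Before the genes are described, the overall level of the arrays needs to be given. The median value of an array ran from 7.78 to 7.91 at 14 d, with a mean of 7.82 ± 0.05 (SD, n = 6), and from 7.57 to 7.87 at 7 d, with a mean of 7.69 ± 0.11 (SD, n = 6). The 14 d arrays were brighter by 0.13 in log2 units (exact permutation test, two-sided, p = 0.0346), and the groups overlapped. In a principal component analysis of the 12 arrays after each had been centred on its median, the first component held 48.3% of the variance. Scores on it ran from 11.6 to 49.9 at 14 d and from -53.1 to 26.7 at 7 d. Within the groups their correlation with the array median was r = 0.935 over the 14 d birds and r = 0.996 over the 7 d birds (n = 6 each, a description of 12 arrays). The 14 d value rests largely on replicate 2, with a median of 7.912 and a score of 49.87. The other 14 d birds had medians of 7.778 to 7.822 and scores of 11.62 to 24.42, without a clear link between them. Replicate 6 of the 7 d group lay among the 14 d birds on this axis, and replicate 2 of the 14 d group stood above all others. Array level thus moved with the groups and, most clearly among the 7 d birds, with the pattern of expression. Its part in the results was not tested, and values with the array median as a covariate stand beside the results below.

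**Figure D1:**
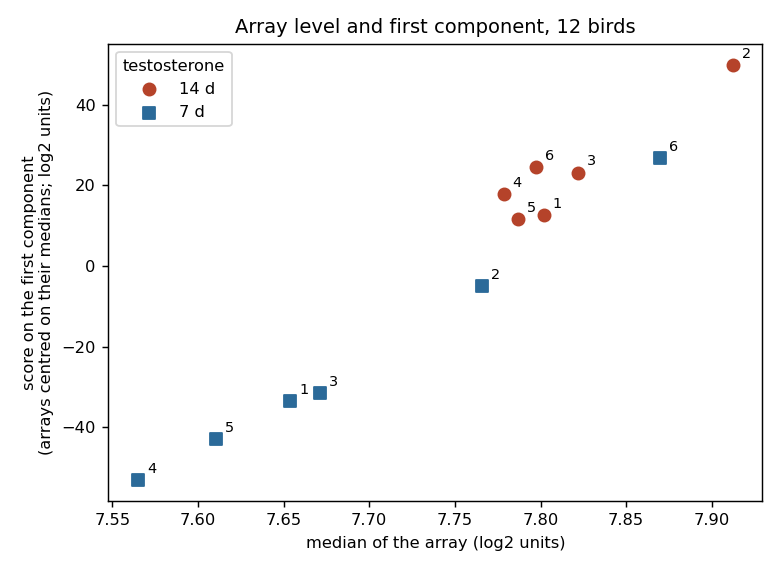
Median of each array (x axis, log2 units) against its score on the first principal component of the 12 centred arrays (y axis, log2 units), with 14 d birds as circles, 7 d birds as squares and the replicate number beside each. The 14 d scores sit between 11.6 and 49.9, and 7 d replicate 6, at 26.7, lies among them while the other 7 d birds are below 0.

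Many more transcripts were higher than lower in 14 d birds. In the limma fit, in which a transcript was called at a Benjamini-Hochberg adjusted p under 0.05, 3029 transcripts (11.6% of those tested) were higher at 14 d and 624 (2.39%) were lower, together 3653 (14%). Among the named genes 277 (12.4%) were higher and 57 (2.56%) were lower. The median change was 0.11 in log2 units over all transcripts and 0.14 over the named genes, so that the changes given below are best read against this shift. With each array centred on its median, 1668 transcripts (6.4%) were higher and 1215 (4.66%) lower, and the centred calls held all 624 of the lower ones and 1668 of the 3029 higher ones. In 1069 transcripts (4.1%) the 6 birds of one group all lay beyond the 6 of the other, with the 14 d birds below in 277 (1.06%) and above in the rest (3.04%). Among the named genes, centring left 169 higher (7.59%) and 116 lower (5.21%).

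When the array median entered the fit as a covariate, 122 transcripts (0.468%) were called, 87 higher and 35 lower, of which 104 were also called without it. Leaving out single birds moved the number of called transcripts between 844, without 7 d replicate 4, and 7547, without 7 d replicate 6. Without 14 d replicate 2 it was 1204, and without both this bird and 7 d replicate 6 it was 4584.

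The shift differed with the brightness of the transcripts, which were split by mean level into 5 equal classes. The median change was 0.19 in the dimmest class, 0.19 in class 2, 0.14 in class 3, 0.06 in class 4 and -0.02 in the brightest. Calls of higher expression made up 11.9% of the transcripts in the dimmest class, 16.4% in class 2 and 5.95% in the brightest. Calls of lower expression ran the other way, at 1.30% in the dimmest class and 3.36% in the brightest.

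**Figure D2:**
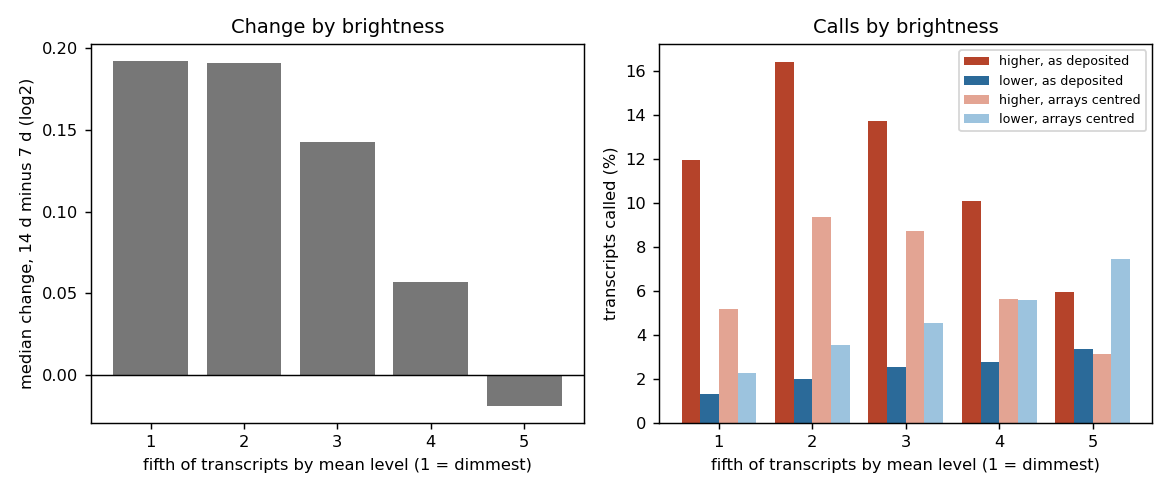
Left, median log2 change (14 d minus 7 d) in 5 equal classes of the transcripts by mean level, from the dimmest to the brightest; right, percent of transcripts called higher or lower at 14 d, as deposited and with the arrays centred. The median change is 0.19 in the dimmest class and -0.02 in the brightest, and after centring 7.44% of the brightest class was lower at 14 d.

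JAZF1, BEND5 and NFIA were among the named genes with large rises. JAZF1, a zinc-finger regulator of transcription, had values of 7.00, 7.34 and 7.95 (lowest, median and highest) in 14 d birds, against 4.94, 5.74 and 6.73 in 7 d birds. Every 14 d bird was above every 7 d bird, and the change was 1.55 ± 0.26 in log2 units, or 2.93-fold (limma, adjusted p = 0.00073). The errors of all changes are standard errors of the fit. BEND5, a DNA-binding protein of the BEN-domain family, had values of 8.40, 8.58 and 8.92 at 14 d, against 6.66, 6.87 and 8.23 at 7 d. Again the groups did not overlap (change 1.47 ± 0.27, adjusted p = 0.00219).

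NFIA, a transcription factor that drives the formation of glia in the developing nervous system, had values of 9.78, 10.06 and 10.23 at 14 d, against 8.66, 8.82 and 9.54 at 7 d. NFIA did not overlap between groups either (change 1.10 ± 0.20, limma, adjusted p = 0.00175).

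The other large rises were in genes of varied roles. AGR3, of the protein disulphide isomerase family, had values of 9.60, 10.32 and 10.71 at 14 d and 8.61, 9.15 and 9.52 at 7 d, with no overlap and a change of 1.12 ± 0.29. KLHDC4, a kelch-domain protein, and MARVELD1, a membrane protein, rose by 1.14 and 1.19, likewise with no overlap between groups. In SH3BGRL (1.11), the trafficking-complex subunit TRAPPC13 (1.11), the actin regulator EPS8 (1.10), LYPLAL1 (1.04) and the nicotinamide riboside kinase NMRK2 (1.03) the groups overlapped, with 3 to 5 of the 6 birds at 14 d above all 7 d birds. In 6 of these 11 rises the groups did not overlap at all, while 3.04% of all transcripts had every 14 d bird above every 7 d bird. The rule takes large changes with every 14 d bird above the 7 d mean, which favours such genes. The 11 had adjusted p-values (limma) between 0.00073 and 0.0142, and 10 were called whichever 1 of the 12 birds was left out; LYPLAL1 lost its call without 7 d replicate 4.

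Among the 12 largest falls, SERAC1, which remodels phospholipids where mitochondria meet the endoplasmic reticulum, had the largest. It had values of 5.80, 7.12 and 7.74 at 14 d, against 7.02, 8.16 and 8.62 at 7 d. The groups overlapped, with 3 of the 14 d birds below all 7 d birds (change -1.05 ± 0.29, limma, adjusted p = 0.0168), and the call was lost without 14 d replicate 2 or without 7 d replicate 4. PEX5L, an accessory subunit of the hyperpolarisation-activated HCN channels, was at 5.46, 5.77 and 6.28 at 14 d, against 6.37, 6.67 and 6.86 at 7 d. Its groups did not overlap, the change was -0.82 ± 0.19 (limma, adjusted p = 0.00724), and the call was kept whichever bird was left out.

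GPALPP1 had the smallest adjusted p of the named falls. Its values were 9.77, 10.32 and 10.61 at 14 d, against 10.67, 10.90 and 10.99 at 7 d. All 14 d birds were below all 7 d birds, and the change was -0.62 ± 0.10 (limma, adjusted p = 0.000651). DHX8, a helicase of the spliceosome, was the other gene of the 12 with no overlap, at 6.75, 7.38 and 7.80 at 14 d and 7.85, 8.08 and 8.19 at 7 d (change -0.70 ± 0.20).

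Genes of neuronal signalling and adhesion were also among the falls. NCALD, a neuronal calcium sensor, had values of 7.04, 7.35 and 7.50 at 14 d and 7.32, 8.27 and 8.42 at 7 d. The groups overlapped through the 7 d bird at 7.32, replicate 6 (change -0.73 ± 0.19, limma, adjusted p = 0.0149), and the call was lost without 7 d replicate 4. CNR1, the cannabinoid receptor of neurons, had values of 8.34, 9.02 and 9.22 at 14 d and 8.91, 9.72 and 9.92 at 7 d. CNR1 overlapped between groups, its change was -0.65 ± 0.17 (adjusted p = 0.0133), and the call was lost without 14 d replicate 2 or without 7 d replicate 4. CDH7, an adhesion molecule of the cadherin family, changed by -0.74 and the phospholipid-binding copine CPNE2 by -0.62. The call of CDH7 was lost without 7 d replicate 4, and CPNE2 was called in 6 of the 12 fits with 1 bird left out.

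NUDCD1 (-0.91), the RNA-binding protein RBM26 (-0.82), the deubiquitinase USP20 (-0.75) and NARF (-0.71) make up the 12 falls. Their adjusted p-values lay between 0.0253 and 0.0408, and each lost its call without at least 5 of the 12 birds in turn. Of the 12 falls, 2 were called whichever bird was left out, PEX5L and GPALPP1, and in 3 the groups did not overlap. Over all transcripts 1.06% had every 14 d bird below every 7 d bird, and the rule favours such genes here too.

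**Figure D3:**
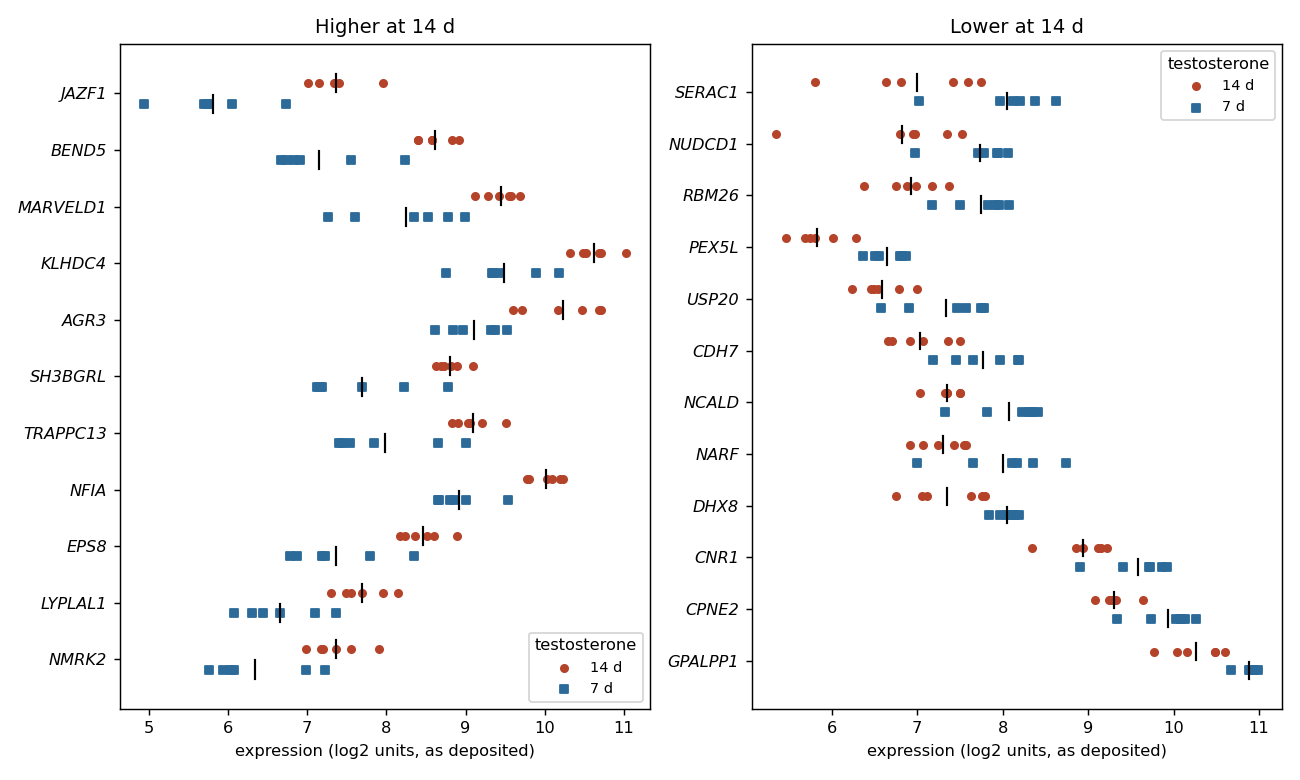
Deposited log2 values of the 11 rises (left) and 12 falls (right) named by size of change, 1 point per bird, with 14 d birds as circles above 7 d birds as squares and a bar at each mean. In 6 of the 11 rises and 3 of the 12 falls, no bird of one group reaches into the other, which the choice by size of change favours.

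With the array median as a covariate, 10 of the 2226 named genes passed, 8 higher and 2 lower. JAZF1 kept a change of 1.05 (adjusted p = 0.0212 in limma), BEND5 0.79 (0.0244), NFIA 0.76 (0.0475) and GPALPP1 -0.58 (0.00886). Across the 23 genes named by size of change the direction was the same in all, and the covariate change was 37.9% to 110.1% of the change without it, with a median of 54.0%. The other 6, named after their values were seen, were SLC25A48, a member of the mitochondrial carrier family, CLEC3B, a plasminogen-binding lectin, the metalloprotease ADAM12, CAPSL, the endosomal WASH-complex subunit WASHC5 and the secreted protein CYTL1. SLC25A48 had values of 10.45, 10.79 and 10.96 at 14 d and 9.22, 9.75 and 10.30 at 7 d, with no overlap and a change of 1.01. CLEC3B (0.99), ADAM12 (0.90) and CAPSL (0.68) were higher at 14 d, also with no overlap. In ADAM12 the groups all but touched, with the lowest 14 d bird at 8.167 and the highest 7 d bird at 8.1666. WASHC5 (0.32) overlapped between groups, and CYTL1, at -0.45, was lower in every 14 d bird than in any 7 d bird. CAPSL is dim: its 7 d mean of 3.48 lay within the range of the arrays' 5th percentiles, 3.43 to 4.14.

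The title of each sample ends in a letter, L or R, whose meaning is not given. The 14 d birds held 3 of each and the 7 d birds 1 L and 5 R. With the letter as a term 8.29% of the transcripts were higher and 1.59% lower, and 20 of the 23 genes stayed called. Among the R birds alone, 3 at 14 d and 5 at 7 d, 7 transcripts were higher and 5 lower, and GPALPP1 was the 1 gene of the 23 still called, while all 23 kept their direction.

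Gene lists for the tissue and the treatment were read in the same way, each set beside the 12.4% of named genes called higher, the 2.56% called lower and their median change of 0.14. The shares of named genes called differed in the other fits. Centring gave 7.59% higher and 5.21% lower, leaving out 14 d replicate 2 gave 4.36% and 1.12%, leaving out 7 d replicate 6 gave 26.2% and 5.35%, and the covariate gave 0.359% and 0.0898%. A list's count in one of these fits is to be read against the share in that fit. The lists have few measured members, and no test was made of a list as a whole. They were not matched for brightness, and the median change ran from 0.19 in the dimmest class of transcripts to -0.02 in the brightest. In bulk tissue, fewer cells of a type and less RNA per cell cannot be told apart.

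The mitochondrial ribosome, which makes the few proteins encoded in mitochondrial DNA, had the highest median of the lists with at least 3 members, 0.40, and 5 of its 10 measured members rose and none fell. MRPS31 had values of 9.94, 10.10 and 10.29 at 14 d, against 9.03, 9.39 and 9.96 at 7 d. In MRPS31 5 of the 6 birds at 14 d were above all 7 d birds (change 0.64 ± 0.15, limma, adjusted p = 0.00783). MRPS34 (0.67), MRPL15 (0.61), MRPS30 (0.47) and, named beyond the rule, MRPS27 (0.59) were the others. After centring 4 of the 10 were higher (7.59% of named genes in that fit), and 2 without 14 d replicate 2 (4.36%), 7 without 7 d replicate 6 (26.2%) and 0 with the covariate (0.359%).

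Of 20 measured genes of mitochondrial respiration, 3 rose and 1 fell, with a median of 0.01. PDHA1, the alpha subunit of the pyruvate dehydrogenase that feeds the citric acid cycle, was at 8.20, 8.49 and 8.65 at 14 d, against 6.65, 7.42 and 8.11 at 7 d. PDHA1 did not overlap between groups (change 0.99 ± 0.24, limma, adjusted p = 0.00899). COX10, which makes the haem of cytochrome oxidase, rose by 0.93 and NDUFB10, of respiratory complex I, by 0.43, whereas UQCRQ, of the cytochrome bc1 complex, fell by 0.44. COX10 was called in 10 and NDUFB10 in 7 of the 12 fits with 1 bird left out, and NDUFB10 did not pass after centring. After centring 2 of the 20 were higher and 2 lower. Without 14 d replicate 2, 2 were higher and 0 lower, so that the fall of UQCRQ was lost. With the covariate none passed.

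Receptors for monoamines and acetylcholine had a median change of 0.34, and 4 of 12 rose and none fell. DRD4, a dopamine receptor, had values of 7.70, 8.06 and 8.27 at 14 d and 6.69, 6.96 and 7.99 at 7 d. In DRD4 4 of the 6 birds at 14 d were above all 7 d birds, of which replicates 2 and 6 were the highest (change 0.84 ± 0.22, limma, adjusted p = 0.0152). The serotonin receptor HTR7 (0.47) and the nicotinic subunit CHRNA6 (0.55) rose less. CHRNA9, a nicotinic subunit best known from the inner ear, had values of 4.46, 5.05 and 5.67 at 14 d and 2.84, 3.36 and 3.86 at 7 d, with no overlap and a change of 1.62 (adjusted p = 0.00367). Its 7 d mean of 3.37 was below the 5th percentile of every array, so that its change cannot be sized well. After centring, 2 of the 12 were higher, and 2 were without 14 d replicate 2, 6 without 7 d replicate 6 and 0 with the covariate.

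Neuropeptides and their receptors held 27 measured genes, of which 5 rose and 2 fell, with a median of 0.29. All 7 were receptors. NPY1R, a receptor of neuropeptide Y, was at 5.29, 5.76 and 6.03 at 14 d, against 5.91, 6.40 and 6.67 at 7 d. In NPY1R 4 of the 6 birds at 14 d were below all 7 d birds (change -0.58 ± 0.16, limma, adjusted p = 0.0202). The neurokinin receptor TACR2 was the other fall, at -0.50 and with no overlap. The neuromedin U receptors NMUR1 (0.52) and NMUR2 (0.39), the gastrin-releasing peptide receptor GRPR (0.37), the cholecystokinin receptor CCKAR (0.54) and the galanin receptor GALR3 (0.40) rose, with overlapping groups in all 5. TACR2, CCKAR and GALR3 are named beyond the rule. After centring 1 of the 27 was higher and 3 were lower. Without 14 d replicate 2 none passed in either direction. Without 7 d replicate 6 10 were higher and 3 lower, where 26.2% and 5.35% of all named genes were, and with the covariate none passed.

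Regulators of neurogenesis and differentiation held 14 measured genes, of which 4 rose and 1 fell, with a median of 0.29. NKX2-1, which specifies ventral forebrain neurons, had values of 6.02, 6.44 and 6.91 at 14 d and 5.29, 5.49 and 6.18 at 7 d. In NKX2-1 4 of the 6 birds at 14 d were above all 7 d birds (change 0.87 ± 0.19, limma, adjusted p = 0.00565). SOX14, a transcription factor of some inhibitory neurons, rose by 0.79, LHX8, of cholinergic neurons and named beyond the rule, by 0.53, and SOX8, of oligodendrocytes, by 0.38. BRINP1, a brain protein that slows the cell cycle in neural stem cells in the mouse, fell, at 10.07, 10.41 and 10.55 at 14 d and 10.76, 10.99 and 11.14 at 7 d. No 14 d bird reached the 7 d range (change -0.62 ± 0.16, limma, adjusted p = 0.0129). After centring, 3 were higher and 1 lower, as they were without 14 d replicate 2; without 7 d replicate 6, 7 were higher and 1 lower, and none passed with the covariate.

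Of 17 potassium channels 3 rose and none fell (median 0.23): the leak channels KCNK5 (0.88) and KCNK10 (0.83) and KCNV1 (0.46), a subunit that modifies other channels. KCNK5 had values of 9.13, 9.48 and 9.71 at 14 d and 8.05, 8.30 and 9.58 at 7 d, and its adjusted p of 0.0489 (limma) was lost without any of 10 of the 12 birds. Of 8 sodium and calcium channels 2 rose and none fell (median 0.25), CACNG1 by 0.47 and TRPC6 by 0.53. None of the 17 potassium channels passed without 14 d replicate 2 or with the covariate. Of the sodium and calcium channels 1 of 8, CACNG1, passed without 14 d replicate 2 and none with the covariate.

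Of 8 angiogenic factors 3 rose and none fell, although the median of 0.10 was below that of all named genes. EFNB2, an ephrin of arteries and of axon guidance, had values of 9.05, 9.35 and 9.56 at 14 d and 8.71, 8.85 and 9.22 at 7 d, with 5 of the 6 birds at 14 d above all 7 d birds (change 0.44 ± 0.10, limma, adjusted p = 0.00516). VEGFC (0.51) and ESM1 (0.43), a proteoglycan that endothelial cells secrete, were the others. After centring, as without 14 d replicate 2, 1 of the 8 passed. Of 10 genes of the extracellular matrix, COL6A1 (0.52) and the protease ADAMTS20 (0.58) rose and none fell, while the hyaluronan synthase HAS2, at -0.59, did not pass. The list's median was -0.01. After centring 1 of the 10 was higher, and none passed without 14 d replicate 2, after quantile normalisation or with the covariate. Of 17 genes of axon guidance and adhesion, EFNB2 rose and CDH7 fell.

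Of the 33 lists with at least 3 members, 13 had a median change below 0, against 0.14 for all named genes. They included the circadian clock (-0.16), the synaptic vesicle cycle (-0.13), chromatin (-0.10), steroid receptors (-0.10), the cytoskeleton (-0.09), the proteasome (-0.08), RNA splicing (-0.07), glutamate receptors (-0.06) and MAPK, PI3K and FOXO signalling (-0.04). Of 28 splicing genes 3 fell, DHX8, RBM26 and KHDRBS3 (-0.48), and 1 rose, SRSF6 (0.74). After centring 6 were lower and 1 higher; without 14 d replicate 2, and with the covariate, none passed. Of 20 genes of the synaptic vesicle cycle NCALD and the endophilin SH3GL3 (-0.44) fell and VAMP7 (0.32) rose. With centred arrays the change of VAMP7 was 0.19 and did not pass (adjusted p = 0.239).

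Protein synthesis in the cytosol had 1 called gene. Of 22 genes of the cytosolic ribosome and translation 1 fell and none rose, with a median of 0.07. The gene was RPL10A, at 7.09, 7.33 and 7.52 at 14 d and 7.79, 7.91 and 8.12 at 7 d. Its groups did not overlap (change -0.61 ± 0.14, limma, adjusted p = 0.00782). Of 23 cell cycle genes the mitotic kinesin KIF11 fell (-0.44), with no overlap, and CDKN3 rose (0.45). KIF11 was called in 4 and CDKN3 in 6 of the 12 fits with 1 bird left out. None of the 23 passed without 14 d replicate 2 or with the covariate.

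Transmission by GABA, glycine and glutamate had 1 called gene. None of 7 genes of GABA and glycine passed, with GLRA2 at -0.29 and GABRD at -0.19. Of 8 genes of glutamate receptors and partners, HOMER1 was called at 1.00, but its group means of 3.46 at 14 d and 2.47 at 7 d lay at or below the arrays' 5th percentiles, where a change cannot be sized well. None of 13 cytoskeleton and neurite genes passed. None of 5 steroid receptors and co-regulators passed either.

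The oestrogen receptor ESR1 was at 6.43, 6.94 and 7.45 at 14 d and 6.98, 7.66 and 7.98 at 7 d, a difference of -0.59 ± 0.23 that did not pass (limma, adjusted p = 0.08). Aromatase, CYP19A1, was at 7.96, 8.04 and 8.44 at 14 d and 7.75, 7.94 and 8.09 at 7 d, a difference of 0.17 ± 0.11 that did not pass (adjusted p = 0.265). HSD17B2, which oxidises testosterone and oestradiol to weaker steroids, was the 1 of 5 genes of steroid conversion that rose (0.43 ± 0.12, limma, adjusted p = 0.0194). Its call was lost without 14 d replicate 2, 7 d replicate 4 or 7 d replicate 5, and with the covariate the change was 0.17 (adjusted p = 0.393). Of 6 measured immediate early genes only HOMER1, described above as near the floor, was called, and after centring 0 were. The activity-driven gene EGR1 differed by 0.29 and did not pass, and in it 7 d replicate 6 had the highest value of the 12 birds, 10.52. Without that bird the difference in EGR1 was 0.53 and passed, in a fit where 26.2% of named genes were higher. CRHBP, which binds corticotropin-releasing hormone, differed by 0.29 and did not pass.

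In the remaining signalling and housekeeping lists, called genes were single. WNT2 rose (0.63) among 14 Wnt genes, SGK2 (0.50) among 18 of MAPK, PI3K and FOXO signalling, the chaperone DNAJB5 (0.63) among 18, the proteasome subunit PSMC3 (0.50) among 5 and the histone deacetylase HDAC8 (0.46) among 21 chromatin genes. Among 19 growth factors and receptors the adaptor GRB10 fell (-0.39), while FGF8 (0.98) and IGF1R (-0.69) did not pass. DNAJB5 was called in all 12 fits with 1 bird left out, HDAC8 in 6 and GRB10 in 2. HDAC8 did not pass after centring (limma, adjusted p = 0.108), and no gene of the SGK2 list was higher then. Without 14 d replicate 2 no Wnt, proteasome, chromatin or growth factor gene passed. With the covariate none of these 6 lists held a called gene. None of 4 circadian clock genes passed.

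**Figure D4:**
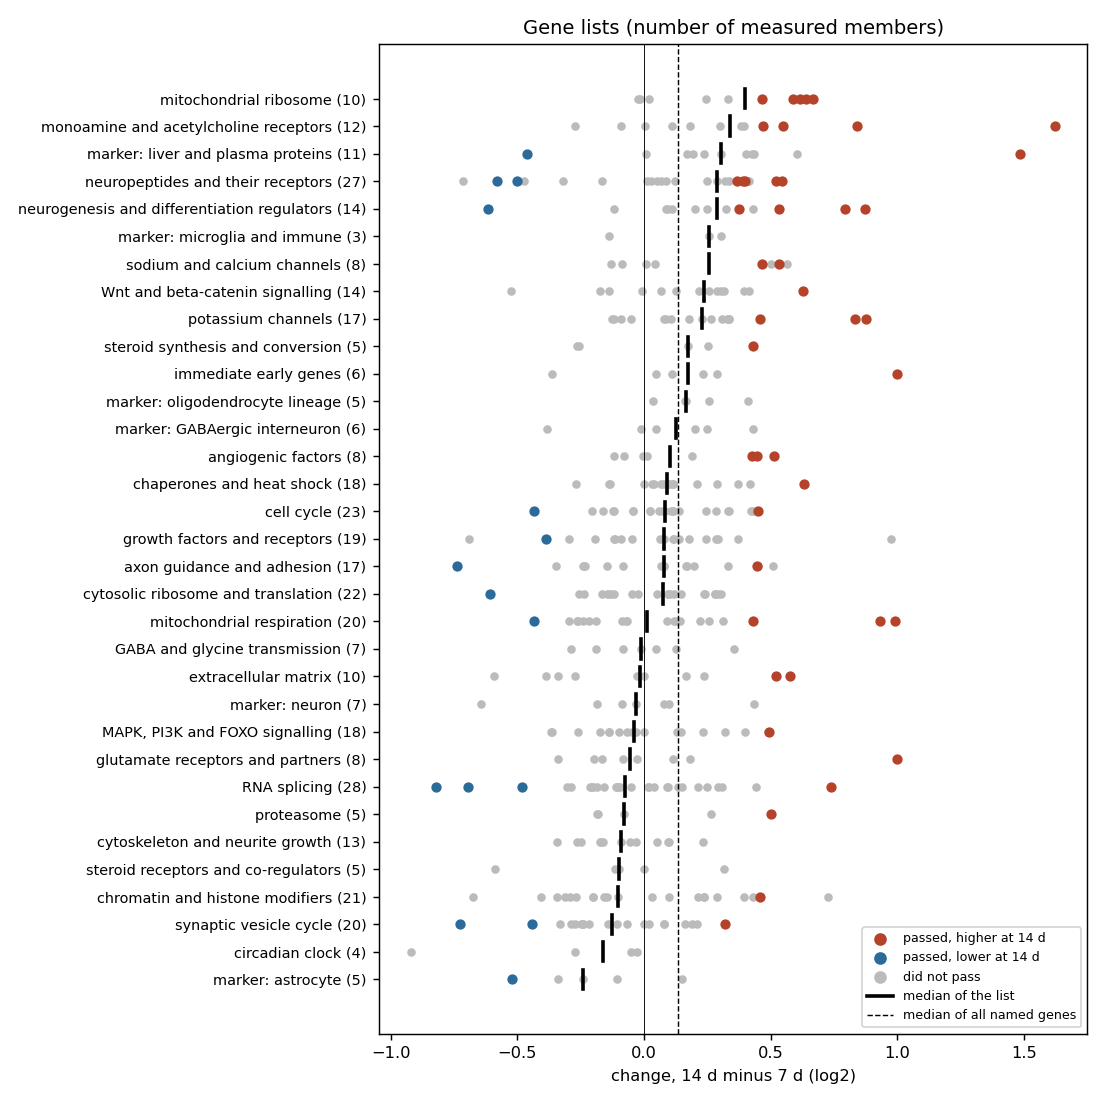
Log2 change (14 d minus 7 d) of each measured member of the gene lists with at least 3 members; large points passed at an adjusted p under 0.05, small grey points did not, bars are list medians and the dashed line is the median of all named genes. The mitochondrial ribosome has the highest median, 0.40, and the astrocyte markers the lowest, -0.24.

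Markers of other cells of the dissected tissue were read beside these lists. None of 7 neuron markers passed, with SNAP25 at 11.98 ± 0.13 at 14 d and 11.90 ± 0.05 at 7 d (SD, n = 6 each), and none of 6 markers of GABAergic interneurons. None of 5 oligodendrocyte markers passed, with FA2H, which makes hydroxylated lipids of myelin, at 8.60 ± 0.18 at 14 d and 8.19 ± 0.50 at 7 d (SD, n = 6 each). Of 5 astrocyte markers the water channel AQP4 fell, at 7.89, 8.08 and 8.16 at 14 d and 8.38, 8.54 and 8.87 at 7 d. Its groups did not overlap (change -0.52 ± 0.12, limma, adjusted p = 0.00776), and the mean log2 level of the 5 markers ran from 7.14 to 7.46 at 14 d and from 7.38 to 7.69 at 7 d. The median change of the 5 markers was -0.24, with changes from -0.52 to 0.15 and none called higher. NFIA, also known from astrocytes but not in this list, rose.

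Of 11 liver and plasma proteins RBP4 fell (-0.46) and FGL1 was called higher, at group means of 3.26 at 14 d and 1.77 at 7 d, near the floor of the arrays. The mean log2 level of the 11 ran from 5.11 to 5.52 at 14 d and from 4.72 to 5.29 at 7 d. That of the 1 measured red blood cell marker ran from 4.19 to 4.68 at 14 d and from 4.17 to 4.66 at 7 d. None of 3 immune markers passed, with IRF7 at 0.26, LAPTM5 at 0.30 and LY86 at -0.14 (log2 change), and their mean level ran from 7.98 to 8.43 at 14 d and from 7.78 to 8.39 at 7 d. The part of other cells in the results was not tested.

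With all birds included, the spread between birds was larger at 7 d. The median SD of a transcript was 0.179 at 14 d and 0.219 at 7 d, and the SD was larger at 7 d in 60.7% of the transcripts. With centred arrays it was larger at 7 d in 61.7%. When 7 d replicate 6 was also left out it was larger at 7 d in 44.6%, with median SDs of 0.168 at 14 d and 0.159 at 7 d. That comparison kept 14 d replicate 2, which stood apart in its own group, so it cannot rank the spread of the groups. The spread as deposited without 7 d replicate 6 was not computed.

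The levels of the leading genes in the other birds of the series place these changes, as a description with no test. In 10 of the 11 rises the 14 d mean was the highest of the 7 groups, and in 9 of the 12 falls it was the lowest. The 7 d mean was the lowest of the 7 groups in 4 of the rises and the highest in 5 of the falls. Picking genes by the size of the change between 14 d and 7 d favours such extreme means, and the share over all transcripts is not given. The values are as deposited, and the mean array median was highest at 14 d, 7.82, and next at 3 h, 7.72. The part of array level in these ranks was not tested. JAZF1 averaged 6.13 ± 0.47 in controls, 6.43 ± 0.67 at 1 h, 6.72 ± 0.24 at 3 h, 6.07 ± 0.44 at 8 h, 6.33 ± 0.42 at 3 d, 5.81 ± 0.58 at 7 d and 7.37 ± 0.32 at 14 d (SD, n = 5 to 6). The 14 d mean was above all the others, and the 7 d mean was the lowest.

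AGR3 was the rise in which 14 d was not the highest group. It averaged 9.03 ± 0.43 in controls, 10.55 ± 0.47 at 8 h, 9.87 ± 0.47 at 3 d, 9.11 ± 0.35 at 7 d and 10.23 ± 0.48 at 14 d. The 7 d mean was thus close to that of controls, and the 14 d mean was below that at 8 h by less than either SD. NCALD averaged 8.31 ± 0.26 in controls, 7.36 ± 0.56 at 3 h, 8.59 ± 0.27 at 3 d, 8.07 ± 0.42 at 7 d and 7.34 ± 0.17 at 14 d, so that its 14 d and 3 h means were close, within their SDs. NPY1R was lowest at 3 h, at 5.54 ± 0.25, with 5.74 ± 0.27 at 14 d and 6.32 ± 0.40 in controls. The 3 h means include 3 h replicate 2, without which the share of transcripts called between 14 d and 7 d was 23.8% instead of 14%. Its part in these means was not tested. DRD4 averaged 6.97 ± 0.50 in controls, 6.67 ± 0.17 at 3 d, 7.17 ± 0.55 at 7 d and 8.01 ± 0.20 at 14 d.

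BRINP1 and AQP4 were highest at 7 d. BRINP1 averaged 10.10 ± 0.27 in controls, 10.96 ± 0.16 at 7 d and 10.35 ± 0.22 at 14 d. AQP4 averaged 8.19 ± 0.12 in controls, 8.00 ± 0.12 at 3 d, 8.58 ± 0.17 at 7 d and 8.06 ± 0.10 at 14 d. RPL10A had a mean of 7.16 ± 0.13 in controls, 7.93 ± 0.15 at 7 d and 7.32 ± 0.14 at 14 d. The 14 d mean was between those of the controls and the 7 d birds in BRINP1 and RPL10A, and below both in AQP4. These 3 genes are falls with a control mean below the 7 d mean, so no other order was possible.

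**Figure D5:**
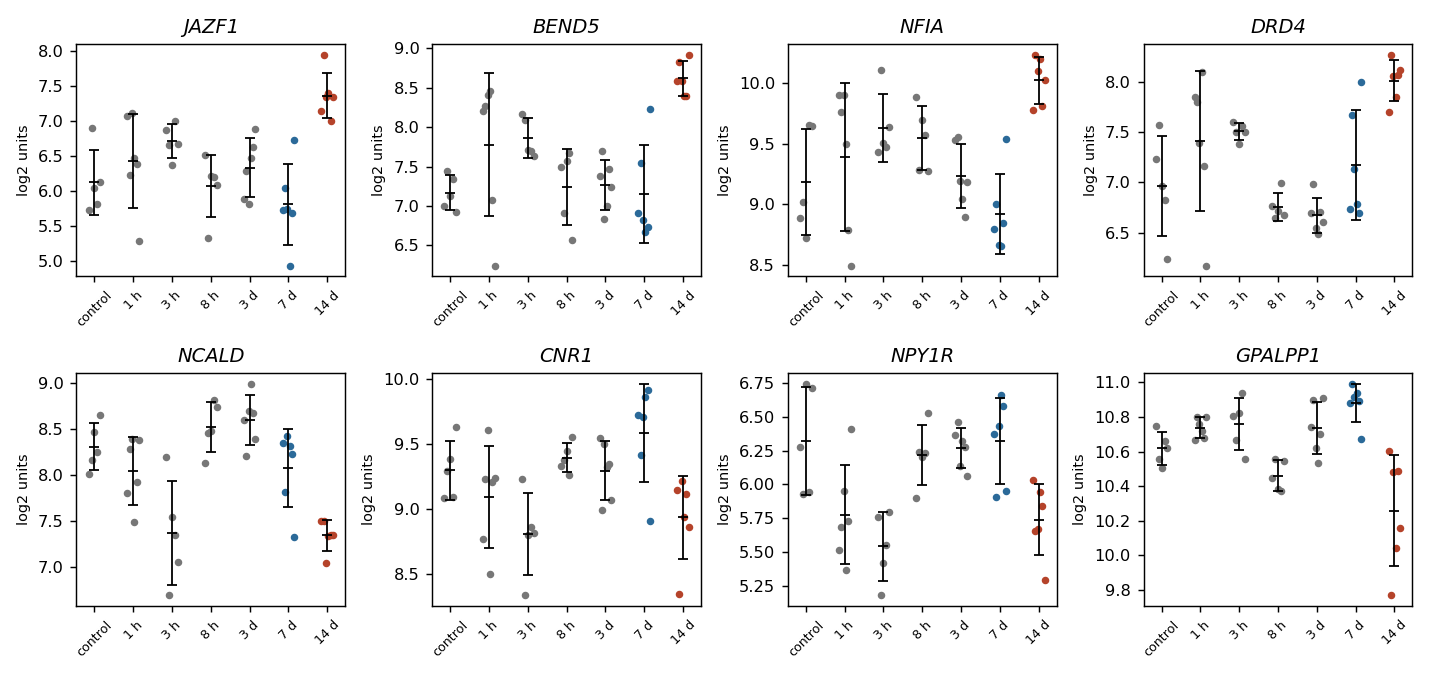
Deposited log2 values of 8 genes in each bird of the 7 groups, from control to 14 d, with bars for mean ± SD (n = 5 or 6). JAZF1, BEND5, NFIA and DRD4 have their highest group mean at 14 d, while NCALD and NPY1R have means at 14 d close to those at 3 h.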

How the data were processed

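Total RNA of HVC from 39 birds was amplified, labelled and hybridised to Affymetrix arrays, per the labels' protocols. The deposited values are log2 values made by the authors, 1 per transcript and array; that they are log2 follows from their range. The submitters' processing notes name Affymetrix Expression Console and affy, without versions; the summarising and normalising steps are not given in the sources used here. Of 26061 identifiers, 2471 matched a RefSeq gene (assembly bTaeGut7.mat, zebra finch), 2234 of them with an official symbol (2226 genes, the brightest identifier used where a gene had more than 1, as 8 had), and 23590 did not match. Identifiers without a match were tested and counted but not named.

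All 39 arrays were fitted with limma 3.58.1 (R 4.3.3), with the 7 group means as terms (32 residual degrees of freedom, moderated by eBayes), and the contrast 14 d minus 7 d was adjusted over 26061 transcripts (Benjamini-Hochberg, two-sided, threshold 0.05). Array medians were compared with an exact permutation test. Named are the 12 largest rises and 12 largest falls among genes that passed as deposited and with centred arrays, had all 14 d birds on one side of the 7 d mean and were not dim in both groups (brighter mean at or above the 25th percentile), up to 4 members of each gene list, and ESR1, CYP19A1, EGR1, CRHBP and CHRNA9. Some genes the rule picks are not reported here and were not replaced, so that 11 rises are named. Genes named beyond the rule were chosen after their values were seen. The comparison, the 35 gene lists and the rule were chosen with earlier results of these data known.

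Alternatives were other scalings, filters, fits and thresholds, the array median as a covariate, the title letter, the replicate number as a block, and each array left out. The code was tested on simulated data. Python 3.11.15, pandas 2.3.3 and matplotlib 3.10.9 drew the figures.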

Additional observations from a re-analysis of the deposited data

Results flagged for a closer look

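Tested were 210 sets of 6 birds: the array medians, the first component and the genes examined, in each group. In 19 sets 1 bird's distance to its nearest neighbour was large against the range of its group. For a single set chance gives about 1 in 20. The sets share the same birds and many genes were chosen by their values, so the 19 cannot be read against that share. In 10 of the 19 the bird was 14 d replicate 2, and in 6 it was 7 d replicate 6.

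In 14 d replicate 2 the array median was 7.912, against 7.778 to 7.822 in the other 14 d birds, and its score on the first component was 49.87, against 11.62 to 24.42. The same bird stood apart within the 14 d group in NUDCD1 (5.349), HTR7 (8.361), GRPR (7.168), TRPC6 (5.797), UQCRQ (9.363), CDKN3 (6.567), CYP19A1 (8.438) and CALB1 (8.08). Replicate 6 stood apart within the 7 d group in NUDCD1 (6.976), GPALPP1 (10.67), TRPC6 (5.304), SH3GL3 (3.816), EGR1 (10.52) and DUSP6 (8.766). In NUDCD1, GPALPP1, TRPC6 and SH3GL3 its value lay on the side of the 14 d birds. In EGR1 and DUSP6 it was above every other bird of both groups, toward the 14 d mean in EGR1 and away from it in DUSP6.

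The other 3 were NCALD in 14 d replicate 3 (7.036), CYTL1 in 7 d replicate 5 (9.24) and TACR2 in 14 d replicate 5 (6.826).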

How the results depend on the processing

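None of the 71 genes of the rule that passed changed sign under any alternative run, which says little, as they were counted because they passed in these data. Of the 71, 26 were called whichever bird was left out, 54 after quantile normalisation, 4 with the covariate and 1 among the R birds alone. Of the genes of the rule that did not pass, some changed sign, such as CYP19A1 (0.17 in the main fit and -0.0048 with the covariate). The share of transcripts called, then called higher, then called lower at 14 d was 14%, 11.6% and 2.39%. It was 18.2%, 14.1% and 4.04% with the 12 arrays alone, 23.8%, 18.8% and 5.02% without 3 h replicate 2 in the shared fit, 11.1%, 6.4% and 4.66% with centred arrays, 10%, 6.3% and 3.73% after quantile normalisation, and 0.468%, 0.334% and 0.134% with the median of each array as a covariate. Adding the letter of the title gave 9.88%, 8.29% and 1.59%, and letter R alone 0.046%, 0.0269% and 0.0192% (3635 transcripts at an unadjusted p under 0.05). Array weights gave 49.5%, 37.5% and 12%, an adjusted p under 0.01 2.13%, 1.89% and 0.246%, and a change of at least 1.5-fold 5.17%, 4.27% and 0.902%. Leaving out 1 bird gave 3.24% to 29% called, 2.71% to 23.8% higher and 0.526% to 5.17% lower. The birds whose absence moved the share called by over 1.5 times were 14 d replicates 2 (4.62%) and 3 (8.96%) and 7 d replicates 1 (6.42%), 3 (7.1%), 4 (3.24%), 5 (4.69%) and 6 (29%); without 14 d replicate 6 the share lower was 1.37%. Of alternatives chosen after seeing the data, the covariate on the 12 arrays gave 1.24%, 0.84% and 0.399%, the covariate without 7 d replicate 6 0.184%, 0.127% and 0.0576%, and quantile normalisation of the 12 arrays alone 15.3%, 9.12% and 6.18%. Same-numbered birds correlated at -0.02 to 0.19 in their deviations from the group means. Each 14 d bird correlated more with some 7 d bird of another number. These values cannot settle whether the replicate numbers pair the birds. The fit with the replicate block gave 22.6%, 17.6% and 5%. The difference in array median was 0.102 to 0.163 with 1 bird left out (p from 0.00217 to 0.0714, exact permutation test), passing without 7 of the 12 birds in turn, and 0.0911 among the R birds (p = 0.25). Over 146 genes of the rule, 3398 values kept their side of the threshold, 641 no longer passed and 166 newly passed. Each run was held to its own cut, so the losses include those under the stricter cuts of an adjusted p under 0.01 and 1.5-fold. The 3398 include values of genes that passed neither before nor after, and all 641 losses fell on the 71 genes that passed. The cause of these shifts was not tested. The number of arrays, and signal near background in FGL1, HOMER1 and CHRNA9, limit what can be read.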

Other observations

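Some other genes missed the threshold. CHGA, a protein of secretory granules, was at 9.22, 9.45 and 9.90 (lowest, median and highest) in 14 d birds and 8.97, 9.12 and 9.20 in 7 d birds, with every 14 d bird above every 7 d bird and an adjusted p of 0.0582 (limma). DLX1, a transcription factor of inhibitory neurons, differed by 0.43 and IGF1R, the receptor of insulin-like growth factor, by -0.69, and neither passed; in both the groups overlapped.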
